A study of Saccharomyces cerevisiae with 8 samples.

Results

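The genes of sulfur assimilation and methionine metabolism were examined in a cross of 2 strains of the budding yeast Saccharomyces cerevisiae. They were taken as the coding transcripts of the annotation whose common name begins with MET, CYS, SAM, STR, SUL, MHT or MMP followed by a digit, which gave 33 genes in 34 annotated transcripts, of 5171 coding transcripts and 7272 transcripts in all. The sulfate permease gene SUL2 is annotated in a 5' and a 3' segment, which are given separately. By their known roles, 29 of the 33 genes belong to sulfur metabolism. The other 4 share only the name: MET18 encodes a factor of cytosolic iron-sulfur protein assembly, and SAM35, SAM37 and SAM50 encode the machinery that inserts proteins into the mitochondrial outer membrane. The rule misses the second subunit of sulfite reductase, which the annotation lists as ECM17.

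Haploid spore pools and diploid hybrids were compared. The hybrids carry 1 genome of S96, a laboratory strain isogenic to the reference strain S288c apart from its mating type, and 1 genome of SK1, a wild isolate. The spore pools are bulks of many haploid segregants of that hybrid, so that each cell carries 1 allele of each gene in a mixed genetic background. They were grown overnight, and during that growth cells were selected for a single mating type and natural selection also acted on the alleles. RNA of 2 spore pools and 2 hybrids, labelled A and B in each group, was sequenced after growth in YPD, a rich medium, and genomic DNA of the same 4 samples was available as read counts at single nucleotide polymorphisms (SNPs). Genes specific to mating type a marked the pools, where their summed level was 62570 in pool A and 43264 in pool B, against 531 in hybrid A and 748 in hybrid B. Of the 6 a-specific genes 5 were called higher in the pools, and neither of the 2 alpha-specific genes tested was called.

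Yeast takes up sulfate, activates it to adenylyl and phosphoadenylyl sulfate, and reduces it through sulfite to sulfide. Sulfide is joined to O-acetylhomoserine to give homocysteine, which is methylated to methionine or passed on to cysteine by transsulfuration, and methionine is activated to S-adenosylmethionine, the methyl donor of the cell. The activator Met4 drives these genes. It does not bind DNA by itself but is brought to promoters by Cbf1, Met31 and Met32 together with Met28, and the ubiquitin ligase with the F-box protein Met30 switches it off when sulfur amino acids are plentiful, as they are in rich medium.

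The sequences before the start codons show these binding letters and the differences between the strains. In the 300 bases before the start codon on R64, CACGTG, the core bound by Cbf1, stood in 11 of the 33 genes (33.3%), against 3.56% of 6007 yeast genes. AAACTGTG, the core bound by Met31 and Met32, stood in 10 of 33 (30.3%), against 1.70% of the same genes. MHT1 and MMP1, whose windows overlap, were both counted for a copy that lies between them. Both strands were searched, and the 2 sets of letters do not overlap in sequence. These shares are a description of the reference sequence, and a copy of the letters is not evidence of binding. MET17, MET28, MET30 and MET1 held both cores. The stretches below carry the cores, in capitals, for a pathway enzyme with both (MET17), for genes whose allele ratios are described further on (MET10, MET30, MET16 and CYS4), all on S288c R64 and each written 5' to 3' on the strand of its gene. CACAGTTT is AAACTGTG read on the other strand.
MET17, chrXII:732242-732348, plus strand: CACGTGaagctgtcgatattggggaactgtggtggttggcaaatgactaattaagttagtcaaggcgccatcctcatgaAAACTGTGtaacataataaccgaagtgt
MET10, chrVI:213043-213108, plus strand: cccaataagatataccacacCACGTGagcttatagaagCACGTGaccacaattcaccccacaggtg
MET30, chrIX:268454-268517, plus strand: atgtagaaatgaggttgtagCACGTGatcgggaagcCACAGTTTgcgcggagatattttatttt
MET16, chrXVI:877783-877830, minus strand: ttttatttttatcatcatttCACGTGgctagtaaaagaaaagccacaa
CYS4, chrVII:798317-798364, plus strand: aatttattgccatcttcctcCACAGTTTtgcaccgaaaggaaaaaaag
MET30 has a listed SNP 167 bases before its start codon, between the Cbf1 core that begins 177 bases before it and the Met31 core that begins 161 bases before it, and no listed SNP falls inside a core of these 5 stretches.

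**Figure D1:**
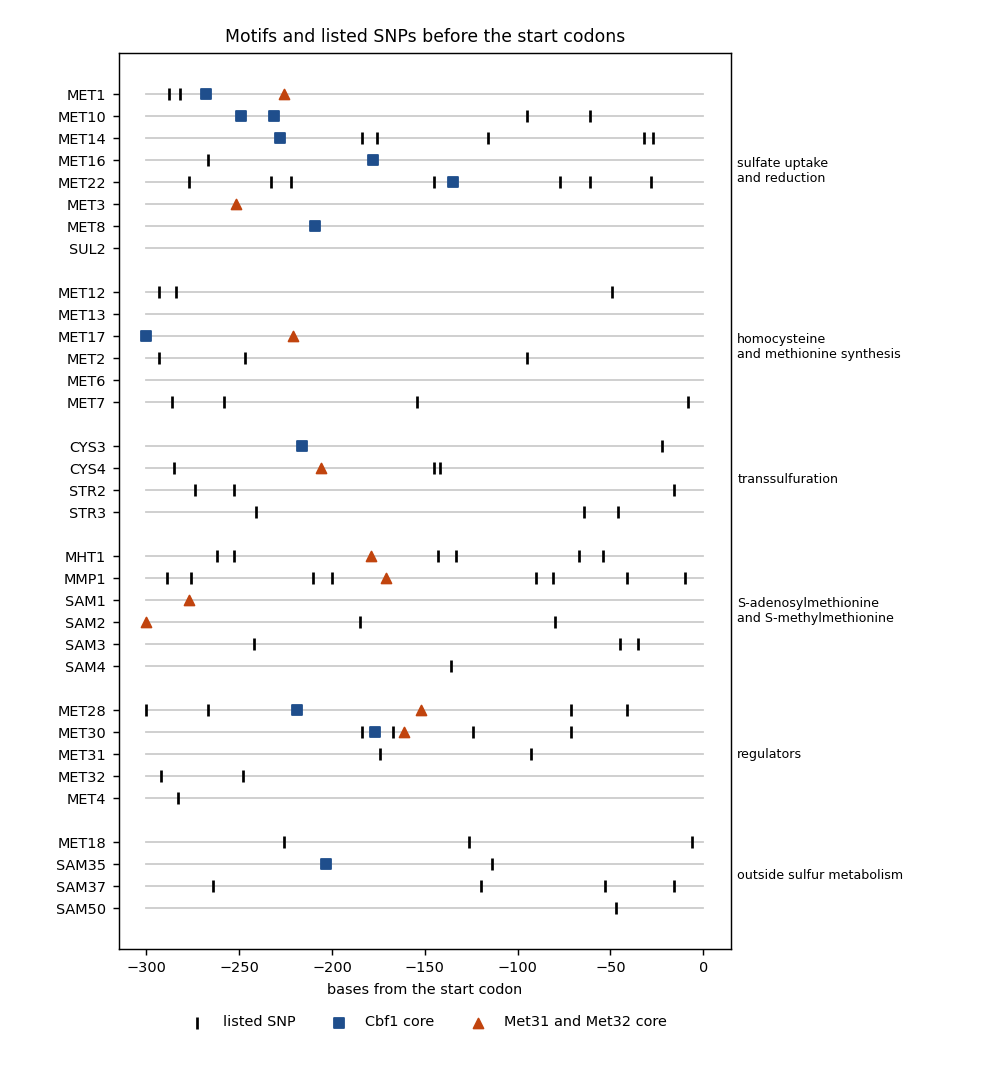
Positions of the Cbf1 core (squares), of the Met31 and Met32 core (triangles) and of SNPs in the DNA tables (ticks) in the 300 bases before each start codon, in bases from the start codon, for the 33 genes ordered by role. The cores of MET10 lie 249 and 231 bases before the start codon, and MMP1 has the most listed SNPs of these windows, 8.

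The next stretches show where the 2 strains differ before the 4 genes called with an adjusted p under 0.05 in the hybrids (MHT1, MMP1, CYS4 and SAM4). They are the parts of the same windows that precede the annotated transcript, on S288c R64, with the position of each listed SNP in capitals. The letters are those of the reference, which S96 shares. MHT1 and MMP1 are divergent neighbours, so the first stretch lies between the starts of both transcripts and is written on the strand of MMP1.
MHT1 to MMP1, chrXII:17742-17944, plus strand: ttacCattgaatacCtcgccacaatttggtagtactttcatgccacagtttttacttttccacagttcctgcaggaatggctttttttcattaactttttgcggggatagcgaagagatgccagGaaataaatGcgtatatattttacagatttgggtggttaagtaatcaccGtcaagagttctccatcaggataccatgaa
CYS4, chrVII:798243-798482, plus strand: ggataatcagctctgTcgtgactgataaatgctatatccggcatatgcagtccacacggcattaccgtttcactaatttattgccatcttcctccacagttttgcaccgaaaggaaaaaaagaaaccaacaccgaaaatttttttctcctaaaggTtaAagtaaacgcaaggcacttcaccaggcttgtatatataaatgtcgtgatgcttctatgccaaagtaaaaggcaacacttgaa
SAM4, chrXVI:24787-24960, plus strand: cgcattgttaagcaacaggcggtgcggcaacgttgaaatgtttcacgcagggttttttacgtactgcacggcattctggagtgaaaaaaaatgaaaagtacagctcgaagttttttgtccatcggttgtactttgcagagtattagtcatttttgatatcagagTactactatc
The stretch between MHT1 and MMP1 holds 5 listed SNPs in 203 bases, that of CYS4 3 in 240 bases and that of SAM4 1 in 174 bases.

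The RNA values are read pairs that fit 1 of the 2 genomes better, counted per allele, divided by the library size and, in both pools, by the share of that allele in the DNA of pool A. They are called corrected read pairs here. Sums of both alleles, and the values per kilobase made from them, were divided by the library size only. Only pairs that cover a difference between the strains enter, so the level of a gene depends on how many differences it carries and on its length. All 34 transcripts had reads of both alleles and passed the filter of 10 corrected read pairs on average. Per kilobase of transcript, the mean over the 4 libraries was 42929 read pairs for CYS4, 33253 for SAM4 and 23469 for CYS3. It was 16.3 for STR3, 89.4 for the 5' segment of SUL2 and 98.7 for MET17. The transcript of MET17, the sulfhydrylase that makes homocysteine from sulfide, holds no listed SNP, and the coding sequences of STR3 and SAM4 hold none, so these values are not a ranking of expression levels. Over the members, the median was 1361 read pairs per kilobase, against 1784 over 5059 coding transcripts tested.

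Allele ratios are given as log2 of SK1 over S96, so that a negative value means a higher S96 allele. In the hybrids both alleles meet the same regulators, and the ratio measures differences in cis. A gene was called when edgeR's quasi-likelihood test gave a Benjamini-Hochberg adjusted p under 0.2 over all 6706 transcripts tested and the fold was above 1.5, the thresholds of the study. All genes means the 6706 transcripts tested, of which 5059 are coding, while every member is coding. In the hybrids 7 of the 34 members were called (20.6%), against 11.6% of all genes. The S96 allele was higher for 6 of them (17.6%, against 7.02% of all genes) and the SK1 allele for 1 (2.94%, against 4.53%). The median ratio was -0.13 over the members and -0.03 over all genes. In the pools 8 members were called (23.5%, against 10.0% of all genes), 5 with the higher S96 allele (14.7%, against 6.10%) and 3 with the higher SK1 allele (8.82%, against 3.94%), with medians of -0.08 and -0.04. The calls depended on the tool and on the DNA used: limma called 2 members in the hybrids and 0 in the pools, and with each pool corrected by its own DNA 3 and 2 members were called. As a background, the DNA of the hybrids, read at the SNPs of each transcript, had log2 ratios of SK1 over S96 between -0.38 (MET1) and 0.32 (SAM2), with a median of -0.02.

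**Figure D2:**
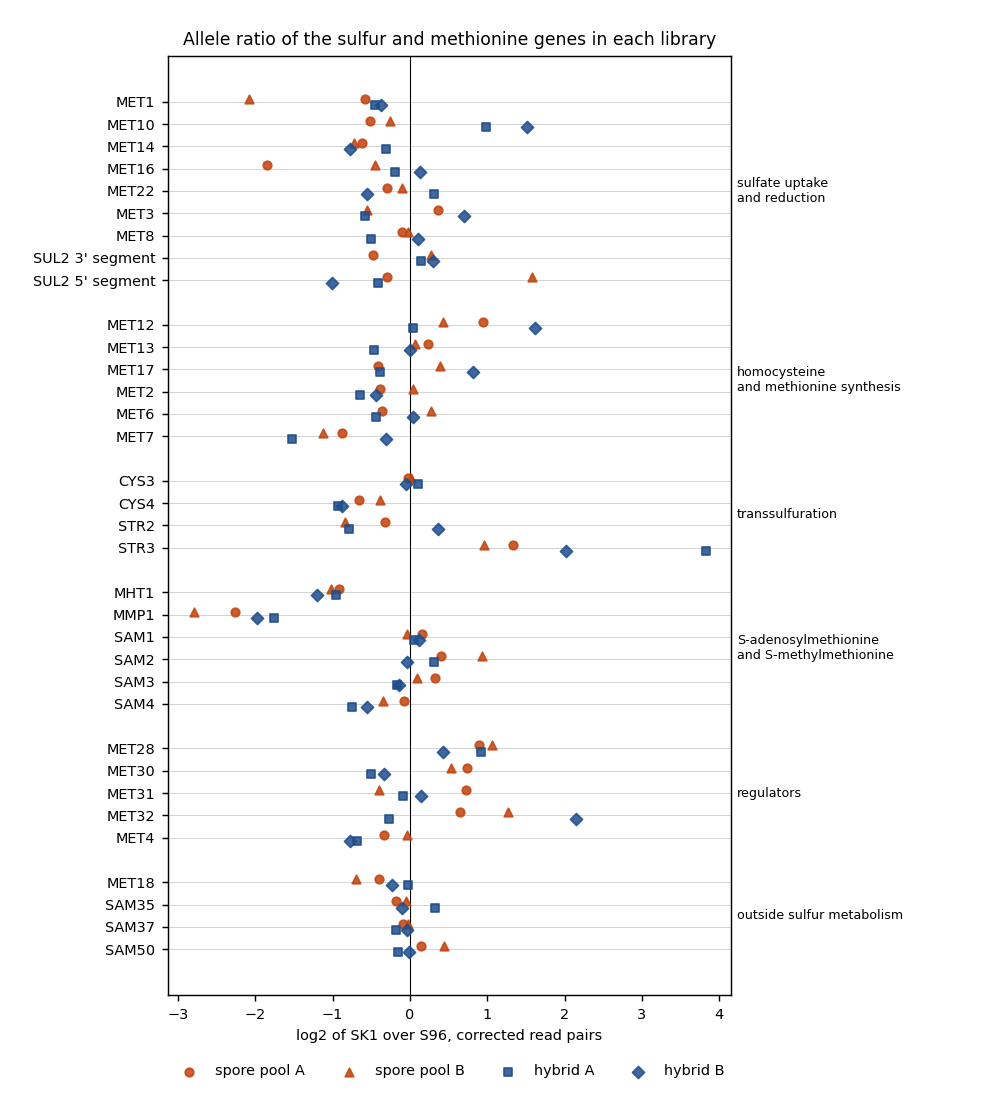
Log2 of SK1 over S96 corrected read pairs for the 34 member transcripts in spore pools A and B and hybrids A and B, grouped by role. MMP1 sits between -2.80 and -1.75 in all 4 libraries, whereas MET10 and MET30 have the pools on one side of 0 and the hybrids on the other.

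Of the 12 members called in either ratio, 4 belong to the genes for S-methylmethionine and S-adenosylmethionine, namely MMP1, MHT1, SAM4 and SAM2. MMP1 (YLL061W, chrXII:17956-19707) encodes the permease for S-methylmethionine, a plant-derived methyl donor. Its SK1 allele had 224 corrected read pairs in pool A and 219 in pool B, and 387 in hybrid A and 207 in hybrid B. Its S96 allele had 1082 and 1531 in pools A and B, and 1308 and 820 in hybrids A and B. The S96 allele was thus higher in all 4 libraries, with log2 ratios of -2.27 and -2.80 in pools A and B and -1.75 and -1.98 in hybrids A and B, whereas the hybrids' DNA had -0.19. The fitted ratio was -2.54 ± 0.36 (SE) in the pools, a 5.81-fold difference with an adjusted p of 0.000173. In the hybrids it was -1.87 ± 0.35, a 3.65-fold difference with an adjusted p of 0.00219, and leaving out any of the 4 libraries kept both calls.

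MHT1 (YLL062C, chrXII:16639-17613), the divergent neighbour of MMP1, encodes the methyltransferase that uses S-methylmethionine to turn homocysteine into methionine. Its log2 ratios were -0.92 and -1.02 in pools A and B, and -0.96 and -1.21 in hybrids A and B. These 4 values were close to each other, although pool B had -0.39 with its own DNA, and the hybrids' DNA had 0.06. The fit gave -0.97 ± 0.31 (adjusted p = 0.0752) in the pools and -1.08 ± 0.31 (adjusted p = 0.0428) in the hybrids. The call in the hybrids was lost without hybrid B (-0.96, adjusted p = 0.310), and that in the pools was lost without either pool (-1.02 without pool A and -0.92 without pool B, adjusted p = 0.346 and 0.369).

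SAM4 and SAM3, adjacent on chromosome XVI, are the paralogs of MHT1 and MMP1 and use S-adenosylmethionine: SAM4 (YPL273W, chrXVI:25087-26064) is a homocysteine methyltransferase and SAM3 (YPL274W, chrXVI:22938-24701) a permease. The log2 ratio of SAM4 was -0.08 and -0.35 in pools A and B, and -0.75 and -0.55 in hybrids A and B. This order depended on the DNA used: the smoothed share of SK1 at SAM4 was 47.7% in pool A, which corrects both pools, and 60.9% in pool B, whose own share gives pool B a ratio of -1.12, below both hybrids. The ratio in the hybrids was called (-0.65 ± 0.09, adjusted p = 0.000168), that in the pools was not (-0.22 ± 0.09, adjusted p = 0.213), and the difference of 0.43 ± 0.13 had an adjusted p of 0.555. With each pool's own DNA the difference was 0.05 ± 0.33, and the hybrid ratio of -0.65 had an adjusted p of 0.278 and was not called. Without hybrid A the hybrid ratio was -0.55, which is under the required fold. The coding sequence of SAM4 holds no listed SNP, and the smoothed DNA share of SK1 at SAM4 was 46.4% and 45.3% in hybrids A and B. SAM3 had 0.33 and 0.10 in pools A and B, and -0.16 and -0.14 in hybrids A and B, and no comparison called it.

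SAM1 and SAM2 encode the S-adenosylmethionine synthetases and are near-identical paralogs, between which read pairs could be shared. SAM1 lay between -0.04 and 0.16 in all 4 libraries. SAM2 (YDR502C, chrIV:1453310-1454464) had 0.41 and 0.93 in pools A and B, and 0.31 and -0.04 in hybrids A and B. The pool ratio was called with the SK1 allele higher (0.67 ± 0.21, adjusted p = 0.0613), the hybrid ratio was not (0.13 ± 0.20), and without pool B the pool ratio was 0.41 (adjusted p = 0.502). The hybrids' DNA at SAM2 had 0.32, the highest of the members, and the part of this in the RNA ratio was not tested.

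Of the transsulfuration enzymes, which pass sulfur between homocysteine and cysteine, CYS4 (YGR155W, chrVII:798543-800066) differed and CYS3 did not pass the test. CYS4 encodes cystathionine beta-synthase, the first step from homocysteine to cysteine. Its SK1 allele had 23109 and 28338 corrected read pairs in pools A and B, and 26648 and 32618 in hybrids A and B. Its S96 allele had 36433 and 37188 in pools A and B, and 50598 and 60073 in hybrids A and B. The S96 allele was higher in every library, and the hybrid ratios of -0.93 and -0.88 lay below the pool ratios of -0.66 and -0.39. In the hybrids the fit gave -0.90 ± 0.08, a 1.87-fold difference with an adjusted p of 3.21e-07. In the pools it gave -0.52 ± 0.07 with an adjusted p of 0.000164, where the fold of 1.44 is under the required 1.5. The change in ratio of 0.38 ± 0.11 did not pass the test (adjusted p = 0.540), and the hybrids' DNA had -0.24. With each pool's own DNA pool B had -0.54, and the difference was 0.31 ± 0.16. CYS3, cystathionine gamma-lyase, had ratios between -0.05 and 0.11 in all 4 libraries.

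STR2 and STR3 work in the opposite direction, from cysteine to homocysteine. STR2 had -0.32 and -0.84 in pools A and B, and -0.79 and 0.36 in hybrids A and B, without a call. STR3 was at the edge of detection, with 23 SK1 and 9 S96 read pairs in pool A, 19 and 10 in pool B, 40 and 2 in hybrid A, and 11 and 2 in hybrid B, before correction. The ratio of SK1 to S96 reads was 2.56 in pool A (exact 95% interval 1.14 to 6.28) and 1.90 in pool B (0.841 to 4.57), against 20 in hybrid A (5.19 to 171) and 5.50 in hybrid B (1.20 to 51.1). These intervals cover counting error only, as copies made by PCR are not independent molecules. The fit across replicates gave 3.35 ± 2.84 in the hybrids and 1.22 ± 2.48 in the pools, with adjusted p of 0.590 and 0.854.

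Among the genes for homocysteine and methionine synthesis, MET7 (YOR241W, chrXV:786995-788641) was called in both groups. MET7 encodes the enzyme that adds glutamate chains to folate, the cofactor of methionine synthesis. Its ratios were -0.88 and -1.12 in pools A and B, and -1.52 and -0.31 in hybrids A and B. The hybrids differed widely, and the hybrid call (-0.91 ± 0.33, adjusted p = 0.118) was lost without hybrid A, where the ratio was -0.31 (adjusted p = 0.801). The pool ratio was -0.999 ± 0.328 (adjusted p = 0.0814), which lost its call without pool A (-1.12, adjusted p = 0.281) and without pool B (-0.88, adjusted p = 0.387). With its own DNA pool B had -0.19. SSP2 overlaps MET7 on the other strand. MET2, MET6, MET12, MET13 and MET17 were not called in either group, with fitted ratios between -0.17 and 0.69 in the pools and between -0.54 and 0.84 in the hybrids. MET2 encodes homoserine acetyltransferase, MET6 methionine synthase, and MET12 and MET13 the reductases that supply methyl-folate.

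In the sulfate uptake and reduction group, MET10 stood apart. MET10 (YFR030W, chrVI:213312-216419) encodes the alpha subunit of sulfite reductase, which makes sulfide. Its SK1 allele had 598 and 431 corrected read pairs in pools A and B, and 483 and 269 in hybrids A and B. Its S96 allele had 856 and 515 in pools A and B, and 243 and 93 in hybrids A and B. The S96 allele was higher in both pools and the SK1 allele in both hybrids, with log2 ratios of -0.52 and -0.25 in pools A and B and of 0.99 and 1.52 in hybrids A and B, while the hybrids' DNA had 0.01. The hybrid ratio was called (1.26 ± 0.45, 2.39-fold, adjusted p = 0.106) and the pool ratio was not (-0.39 ± 0.43, adjusted p = 0.710). The hybrid call was lost without hybrid B (0.99) and, at an unchanged ratio of 1.26, without pool A. It was also lost in the 2 hybrid libraries alone, and with each pool's own DNA (adjusted p = 0.261). A transcript named SUT530 overlaps MET10 on the other strand.

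MET1 and MET16 were called in the pools with the higher S96 allele, and each rested on a single pool. MET1 (YKR069W) encodes a methyltransferase that makes siroheme, the cofactor of sulfite reductase, and had -0.58 and -2.08 in pools A and B, and -0.45 and -0.37 in hybrids A and B. Its pool ratio of -1.33 ± 0.51 (adjusted p = 0.144) was -0.58 without pool B (adjusted p = 0.816), and its DNA in the hybrids had -0.38, the lowest of the members. The annotated transcript of MET1 covers 81.3% of its coding sequence on R64. MET16 (YPR167C, chrXVI:876847-877632) encodes phosphoadenylyl sulfate reductase and had -1.85 and -0.45 in pools A and B, and -0.19 and 0.14 in hybrids A and B. Its pool ratio of -1.15 ± 0.45 (adjusted p = 0.152) was -0.45 without pool A (adjusted p = 0.909). The transcript of MET16 holds 1 listed SNP, at which the hybrids' DNA had -0.27, and CUT434 overlaps it on the other strand. The other 5 genes of the group were not called. SUL2 imports sulfate, MET3 and MET14 encode ATP sulfurylase and adenylyl sulfate kinase, MET8 makes siroheme, and MET22 removes the phosphoadenosine phosphate left by reduction. Their fitted ratios ran between -0.67 (MET14) and 0.65 (5' segment of SUL2) in the pools and between -0.72 (5' segment of SUL2) and 0.22 (3' segment of SUL2) in the hybrids.

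The 5 regulators were described one by one. MET4 (YNL103W, chrXIV:427735-429753), the activator, had -0.33 and -0.04 in pools A and B, and -0.68 and -0.77 in hybrids A and B. Its hybrid ratio was called with the higher S96 allele (-0.73 ± 0.25, adjusted p = 0.0957), a call that was lost without hybrid A (-0.77, adjusted p = 0.283) and without hybrid B (-0.68, adjusted p = 0.430). The pool ratio of -0.18 ± 0.25 was not called (adjusted p = 0.769). At MET4 the smoothed DNA share of SK1 was 42.4% in pool A and 63.03% in pool B, whose DNA was shallow, against 51.3% and 51.7% in hybrids A and B. With its own share pool B had -1.25, and the hybrid ratio was then not called (adjusted p = 0.377).

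MET30 (YIL046W, chrIX:268651-270573), the F-box protein that turns Met4 off, had 1959 and 2752 SK1 read pairs in pools A and B, and 1327 and 1377 in hybrids A and B. Its S96 allele had 1172 and 1898 in pools A and B, and 1874 and 1736 in hybrids A and B. The SK1 allele was higher in both pools, with ratios of 0.74 and 0.54, and the S96 allele in both hybrids, with ratios of -0.50 and -0.33. The pool ratio was called (0.64 ± 0.22, 1.56-fold, adjusted p = 0.102), but not without pool A (0.54, adjusted p = 0.550) or pool B (0.74, adjusted p = 0.284), nor without the correction for allele frequency (0.49). In the hybrids the ratio was -0.42 ± 0.22 (adjusted p = 0.322), and the DNA had -0.03.

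MET28 (YIR017C, chrIX:383556-384119), the cofactor that steadies Met4 on DNA, had 0.89 and 1.06 in pools A and B, and 0.92 and 0.43 in hybrids A and B. The SK1 allele was higher in every library, and the call was made in the pools (0.98 ± 0.33, adjusted p = 0.0942) and not in the hybrids (0.68 ± 0.33, adjusted p = 0.280). It was lost without pool A (1.06, adjusted p = 0.392) and without pool B (0.89, adjusted p = 0.489). MET28 overlaps RPR2, YIR016W and other transcripts of the other strand. MET31 and MET32, the zinc finger proteins, were not called. MET31 had 0.73 and -0.40 in pools A and B, and -0.09 and 0.14 in hybrids A and B, and MET32 had 0.65 and 1.27 in pools A and B, and -0.27 and 2.15 in hybrids A and B. In both genes the libraries of a group disagreed by more than the groups did.

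**Figure D3:**
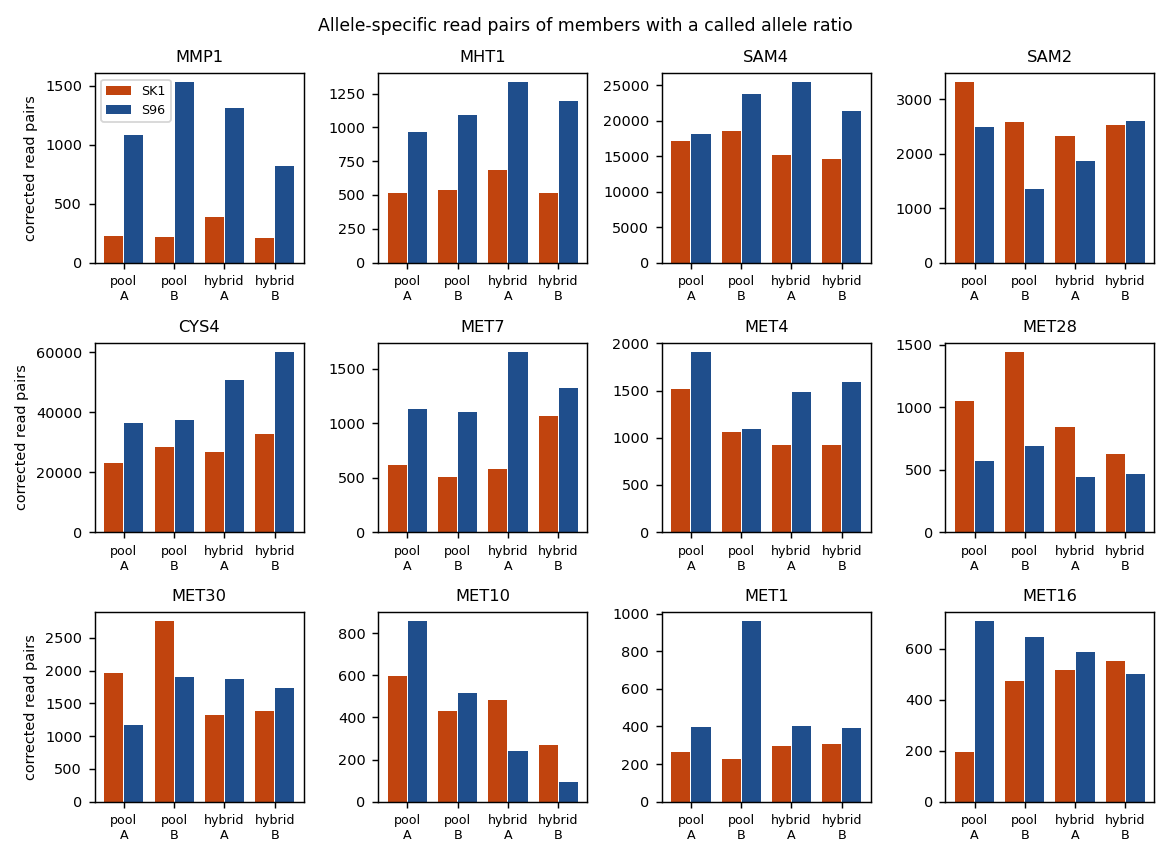
Corrected read pairs of the SK1 allele (left bar of each pair) and the S96 allele (right bar) in spore pools A and B and hybrids A and B, for the 12 members called in either ratio. In CYS4 the S96 bars of the hybrids reach 50598 and 60073, above the 36433 and 37188 of the pools, and MET1 and MET16 each have a single pool with a wide gap.

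The 4 genes outside sulfur metabolism were not called in either ratio. MET18 came nearest, with -0.40 and -0.69 in pools A and B, against -0.03 and -0.23 in hybrids A and B. Its pool ratio of -0.55 ± 0.16 had an adjusted p of 0.0496 but a fold of 1.46. The smoothed DNA share of SK1 at MET18 was 43.8% in pool A and 36.5% in pool B. With each pool's own DNA the pool ratio was -0.33 ± 0.18 (adjusted p = 0.448). SAM35, SAM37 and SAM50 had fitted ratios between -0.11 and 0.29 in the pools and between -0.11 and 0.11 in the hybrids.

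The difference between the pool ratio and the hybrid ratio is the local trans effect of the study: in the pools an allele travels with its own product and with the genes linked to it, so an effect of either in trans shows in the allele ratio there, whereas in a hybrid it meets both alleles. No member was called, against 0.119% of all genes. At an unadjusted p under 0.05 stood 4 members (11.8%), namely CYS4, MET30, SAM4 and MET10, against 5.64% of all genes. DESeq2 called 1 member, MET30, and limma called 0. The pool ratios lay both above both hybrid ratios in 10 members (29.4%, against 17.1% of all genes) and both below in 6 (17.6%, against 17.8%), and 17 of the 34 differences were positive, against 49.4% of all genes. With pool B corrected by its own DNA, 9 members lay above and 5 below. The shares of all genes were not counted in that setting, so these 2 numbers have no background. In CYS4 (0.38 ± 0.11) the pool ratio lay nearer to 0 than the hybrid ratio, and the 0.43 ± 0.13 of SAM4 shrank to 0.05 ± 0.33 with each pool's own DNA. In MET30 (1.05 ± 0.31, adjusted p = 0.540) and MET10 (-1.64 ± 0.62, adjusted p = 0.782) the sign of the ratio differed between the groups. The 3 members with the greatest absolute differences were STR3 (-2.12 ± 3.64), MET10 and the 5' segment of SUL2 (1.37 ± 1.97). The differences of the 5 regulators lay between 0.02 (MET32) and 1.05 (MET30), and none was called. With each pool's own DNA that of MET4 was -0.06 ± 0.43, that of MET32 0.67 ± 1.26 and that of MET30 1.04 ± 0.33. CBF1, which is not a member, had -1.06 ± 0.28 (adjusted p = 0.467). With 2 libraries a group the SE of the difference had a median of 0.45 over the members, so changes in ratio of the size seen here were mostly not separable from the spread.

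**Figure D4:**
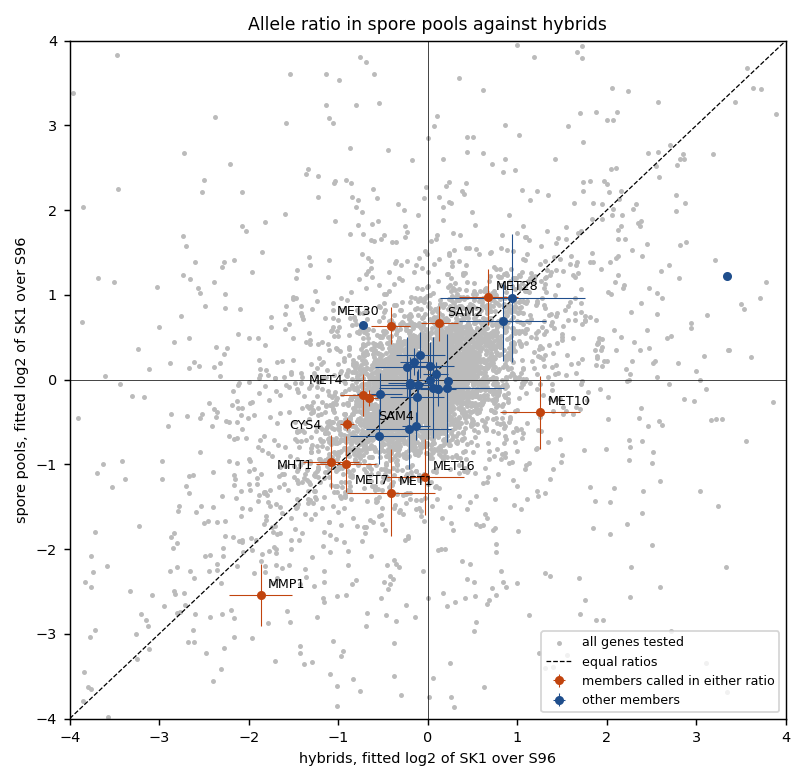
Fitted log2 of SK1 over S96 in the spore pools against the hybrids for all genes tested (grey) and the members, with bars of 1 SE (left out where over 1 for members that were not called). Axes end at 4 in either direction and leave out genes beyond them, and MET10 and MET30 lie in quadrants of opposite sign while MHT1 and MET7 lie near the line of equal ratios.

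For the overall level, the reads of both alleles were summed and divided by the library size, without the DNA share. None of the 34 members was called as changed between pools and hybrids, against 1.13% of all genes, and 3 members (8.82%) had an unadjusted p under 0.05, namely MET10, MET14 and MET6, against 8.14% of all genes. DESeq2 and limma called 0 members. Both pools lay above both hybrids in 7 members (20.6%, against 18.3% of all genes), which were MET2, MET3, MET6, MET10, MET14, MET17 and MET28. Both pools lay below both hybrids in 7 others (20.6%, against 18.3%), which were CYS4, MET7, MET8, MET18, MHT1, SAM37 and STR2. Both shares were near those of all genes. The median change was 0.04 over the members and 0.01 over all genes.

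The 3 greatest changes in level belonged to enzymes of the assimilation route. MET17 had 256 and 197 summed read pairs in pools A and B, against 83.5 and 47.6 in hybrids A and B. The log2 difference of 1.79 ± 0.91 had an adjusted p of 0.704, with few reads behind it. MET10 had 1455 and 946 in pools A and B, against 726 and 362 in hybrids A and B, a difference of 1.14 ± 0.44 (adjusted p = 0.493). MET14 (YKL001C) had 1934 and 2054 in pools A and B, against 1367 and 1010 in hybrids A and B, a difference of 0.75 ± 0.32 (adjusted p = 0.564), over a transcript that covers 60.4% of its coding sequence. In these 3 genes the groups did not overlap, and none of the differences passed the test. CYS4, in the other direction, had 59026 and 65183 in pools A and B, against 77246 and 92692 in hybrids A and B (-0.45 ± 0.23, adjusted p = 0.700). By role, the median change was 0.29 for homocysteine and methionine synthesis, 0.29 for the regulators, 0.07 for sulfate uptake and reduction, 0.04 for the S-adenosylmethionine group, -0.21 for the genes outside sulfur metabolism and -0.26 for transsulfuration. In bulk RNA, fewer cells that express a gene and less RNA per cell cannot be told apart.

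The levels of the regulators in the pools and hybrids overlapped except for MET28, which had 1607 and 2116 in pools A and B, against 1284 and 1084 in hybrids A and B (0.65 ± 0.32, adjusted p = 0.674). MET4 had 3490 and 2163 in pools A and B, against 2404 and 2512 in hybrids A and B. MET30 had 3091 and 4606 in pools A and B, against 3201 and 3113 in hybrids A and B. The levels of MET31 were 2487 and 4546 in the pools and 2442 and 2958 in the hybrids, and those of MET32 were 614 and 255 in the pools and 411 and 464 in the hybrids, for libraries A and B of each.

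Genes that act beside the members, taken from a list of 38 genes for homoserine synthesis, glutathione, methionine salvage, transport and the Met30 ubiquitin ligase, were read the same way, and 36 of them were tested. In the hybrids 2 were called with the higher SK1 allele and 3 with the higher S96 allele (13.9% in all, against 11.6% of all genes). In the pools 2 and 4 were called (16.7%, against 10.0%), and no gene of the list was called for the local trans effect or the level. HOM3, which encodes aspartate kinase at the head of homoserine synthesis, had 2.48 and 2.30 in pools A and B, and 2.71 and 2.45 in hybrids A and B, with the higher SK1 allele throughout (2.58 ± 0.24 in the hybrids, adjusted p = 1.3e-06). ARO8, an aromatic aminotransferase, was called with the higher S96 allele in the pools (-1.44 ± 0.14) and in the hybrids (-1.78 ± 0.15, adjusted p = 2.76e-07). So were ARO9, another such enzyme (-1.05 ± 0.29 in the pools and -0.96 ± 0.30 in the hybrids), and the sulfite pump gene SSU1 (-1.06 ± 0.40 in the pools and -1.94 ± 0.42 in the hybrids). ECM38, which breaks down glutathione, was called in the hybrids with the higher SK1 allele (1.37 ± 0.28, adjusted p = 0.00397). CBF1, the partner of Met4 that binds CACGTG, had -0.75 and -0.73 in pools A and B, against 0.24 and 0.40 in hybrids A and B, and was called in the pools (-0.74 ± 0.20, adjusted p = 0.027). CDC53, the cullin of the Met30 ligase, was called in the pools with the higher SK1 allele (0.60 ± 0.23, adjusted p = 0.148). ECM17, the other subunit of sulfite reductase, had 0.05 and -1.15 in pools A and B, and -0.43 and -0.50 in hybrids A and B, and was not called in any comparison.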

How the data were processed

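Strand-specific RNA libraries of 2 spore pools and 2 hybrids were analysed with DNA of the same samples. The authors used GSNAP to map pairs against both parental genomes at once, kept pairs that fit 1 genome better, and deposited raw counts of these pairs per transcript, allele and lane, made with HTSeq 0.5.4p5 (version from the submitters' processing notes). The strand setting of that step is not given in the sources used here. Of the 34 members, 17 overlap an annotated transcript of the other strand. These are MET2, MET7, MET10, MET12, MET13, MET14, MET16, MET18, MET28, MET31, MET32, SAM1, SAM3, SAM35, SAM37 and both segments of SUL2. At each SNP, the deposited DNA values are read counts of either allele. The DNA tables do not name the allele of each column, which was settled from the mapping bias and the chromosome III selection described in the methods, so their direction is not an independent result.

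Lanes were summed (3 per library). Libraries held 45297678 to 52600018 pairs on transcripts, and another 26.8% to 36.4% of pairs were assigned to no transcript and were left out. The authors counted only pairs that lay wholly inside a transcript, so pairs partly inside one can be among those left out. Library sizes were scaled by TMM (edgeR 4.0.16, R 4.3.3). DNA shares were smoothed with locfit 1.5.9.12 (SNPs of 10 reads or more, window of 28000 bp) after subtracting the hybrids' mapping bias. The shares of pool A served both pools, since the DNA of pool B covered only 10355 SNPs, and 0.5 served the hybrids. This departs from the study, whose model took the allele frequency of each sample. Each pool's own DNA is an alternative here. The study's offset for allele length was not used here. Transcripts with 1 read or more from each allele, whose corrected counts averaged 10 or more, were fitted with edgeR's quasi-likelihood test. All 4 libraries entered 1 model, and p was adjusted over all 6706. The study's methods used DESeq2, which is an alternative here, with DESeq2 1.42.0 and limma 3.58.1 (log2 with a pseudocount of 1). The SE of an edgeR value is its absolute log2 value divided by the square root of the F statistic of its test. The scripts were checked on data drawn with known changes. A and B are labelled as replicates, and p-values measure only the spread between them. Deviations of hybrids and pools with the same letter correlated at 0.015 (levels) and -0.00441 (ratios).

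The gene rule and the gene lists were chosen with earlier results of these data known. Values are given for every member called, for the regulators and for the 3 members with the greatest absolute effect in each comparison. CBF1, HOM3, CDC53, ARO8, ARO9, SSU1, ECM38 and ECM17, MET2, MET6, MET18, SAM1, SAM3, CYS3 and STR2 were added after their values were seen. Sequences are from the RefSeq assembly R64. On chromosome XI only 29.7% of annotated transcripts contain their R64 coding sequence, against 89.2% or more elsewhere, so no sequence of that chromosome is printed. Other alternatives were DESeq2's size factors, other filters and thresholds, other allele frequencies, a replicate block, the hybrids alone and each library left out, and the counts of groups that do not overlap, also with pool B's own DNA, were chosen after seeing the data. Figures were made with Python 3.11.15 and matplotlib 3.10.9.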

Additional observations from a re-analysis of the deposited data

Results flagged for a closer look

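In 4 members both spore pools had an allele ratio of one sign and both hybrids of the other. The share of all genes with such a split was not counted, so this number is not a result about the members. The change itself was tested as the local trans effect. It was -1.64 ± 0.62 (log2, SE) for MET10, with an adjusted p of 0.782. For MET30 it was 1.05 ± 0.31 with an adjusted p of 0.540. For SAM50 it was 0.374 ± 0.382 (adjusted p = 0.961) and for SAM3 0.365 ± 0.231 (adjusted p = 0.930), where the ratios of the hybrids were all within 0.2 of 0, and with its own DNA pool B had -0.75 for SAM3. None passed the threshold by edgeR's quasi-likelihood test, and DESeq2 called MET30 alone (adjusted p = 0.178).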

How the results depend on the processing

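Of the 7 members called in the hybrids, 7 were called with DESeq2, with its size factors and without the filter. All 7 also kept the call at a mean count of at least 50, without a fold filter and with the replicate block. In the 2 hybrid libraries alone 6 were called, and MET10 was lost. Limma called 2, a false discovery rate of 0.05 left 4, and each pool's own DNA frequency left 3. Of the 8 called in the pools, limma called 0, a false discovery rate of 0.05 left 1 (MMP1), and each pool's own DNA frequency gave 2 calls, of which MMP1 is 1 of the 8 and CYS4 is not. Leaving out 1 library changed which members were called. Of the 7, CYS4, MET7, MMP1 and SAM4 kept the call without hybrid B, and CYS4, MET10, MHT1 and MMP1 without hybrid A. MET12, not among the 7, was also called without hybrid A (1.62). Of the 8, MET1, MMP1 and SAM2 kept the call without pool A, and MET16 and MMP1 without pool B. MET18 (-0.69 without pool A) and CYS4 (-0.66 without pool B) were also called in the pools, though not among the 8. For the local trans effect, DESeq2 called 1 member, MET30, and no correction for allele frequency gave 1, MET18, against 0. For the level, members were called only when a pool was left out, where the lone pool is assumed to vary like the hybrids. Without pool A these were MET2, MET14, MET28 and MET31, all higher. Without pool B they were MET6 and MET10, both higher, and MET22, which was lower. The level calls over all genes also rose in both settings, as given below, so these calls are not a result about the members. No value changed sign with a call.

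Over all genes the counts moved by more than 1.5 times in these settings. In the hybrids 775 calls became 204 with limma, 442 at a false discovery rate of 0.05 and 384 with each pool's own DNA. In the pools 673 became 0, 372 and, without the fold filter, 1051, 1018 without the frequency correction and 397 without pool A. The local trans calls (8) became 52 with DESeq2, 0 with limma, 5 at 0.05, 171 without the frequency correction, 3 with each pool's own DNA, and 15, 54 and 24 without pool B, hybrid A and hybrid B. The level calls (76) became 261 with DESeq2, 35 at 0.05, 784 and 870 without pool A and pool B, and 41 without hybrid B. The replicate block, for letters that share no source in the labels, gave 876, 746, 46 and 115 calls in the 4 comparisons over all genes and moved no count of members. In the pools, DESeq2's size factors, the filter of 50 and the window of 56000 bp left 8 members called, and no filter left 6. STR3 dropped out at a mean count of 50. What caused these shifts was not tested.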
